A study of Mus musculus with 7 samples.

Results

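Heme is made and broken down by short chains of enzymes, and 9 genes of these chains, chosen by gene symbol, were followed in the liver. They were Alas1, Alad, Uros, Urod, Cpox, Ppox and Fech of synthesis, and Hmox1 and Blvrb of breakdown. All 9 were found among the 23347 genes of the table, and all 9 were among the 15179 genes that had enough counts to be tested. Liver RNA was sequenced from 7 male C57BL/6 mice, with 1 library per mouse. The 4 control mice, labelled WT, were littermates carrying B4galt1 flox/flox. The 3 mice labelled B4-HKO came from a cross of B4galt1 flox/flox with Alb-Cre (B4galt1 hep-/-), in which Cre is driven by the albumin promoter and deletes the gene in hepatocytes, while the other cells of the liver keep it. B4GALT1 is a galactosyltransferase that builds glycan chains on proteins. All 7 mice were 6 to 8 weeks old at the start and ate CDAHFD, a choline-deficient, amino acid-defined high-fat diet that causes steatohepatitis, for 15 weeks, so every value below is from a diseased liver. Chow-fed mice were not analysed here.

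Heme is a ring that holds iron and serves as the working group of cytochromes, catalase and hemoglobin. Synthesis starts in mitochondria, where ALAS joins glycine and succinyl-CoA, passes through the cytosol (among others ALAD, UROS and UROD) and returns to mitochondria (CPOX, PPOX), where FECH inserts iron. ALAS1 is the rate-limiting isoform of most tissues and is held down by heme itself, and ALAS2 is the isoform of red cell precursors. In liver much of the heme goes to cytochromes P450. Heme oxygenase (HMOX1, HMOX2) opens the ring and releases iron and carbon monoxide, and biliverdin reductase (BLVRA, BLVRB) makes bilirubin, which hepatocytes take up, conjugate and export into bile.

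The 250 bases ahead of the first listed RefSeq transcription start (GRCm38.p6) are shown for Alas1, the rate-limiting gene, and for Uros. Uros was the single member called higher in the B4-HKO libraries. Both lie on the minus strand, Alas1 at chr9:106247955-106248204 and Uros at chr7:133709296-133709545. Capitals mark matches, on either strand, to the E-box CACGTG, which binds clock factors such as BMAL1 and NPAS2, and to the GC box GGGCGG.
Alas1: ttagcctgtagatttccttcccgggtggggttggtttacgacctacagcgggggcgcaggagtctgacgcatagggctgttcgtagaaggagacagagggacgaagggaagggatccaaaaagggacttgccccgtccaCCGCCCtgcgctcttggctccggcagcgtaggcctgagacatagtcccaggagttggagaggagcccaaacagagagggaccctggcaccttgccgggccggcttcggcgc
Uros: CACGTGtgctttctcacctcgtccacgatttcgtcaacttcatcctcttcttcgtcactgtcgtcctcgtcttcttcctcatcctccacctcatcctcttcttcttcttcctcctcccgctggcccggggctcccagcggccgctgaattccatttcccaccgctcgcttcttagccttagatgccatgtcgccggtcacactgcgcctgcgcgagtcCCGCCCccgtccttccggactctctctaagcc
The Uros window opened with an E-box at its far end, 250 bases before the start, and held a GC box 32 bases before it. A single GC box, 111 bases before the start, was the only match in the Alas1 window. Alas1 and Uros each have another listed start, and those windows held neither motif. RefSeq windows were at hand for 7 of the 9 members. In the window of the first listed start, an E-box was also present in Alad (105 bases before the start) and Urod (49 bases before it), which made 3 of 7 genes, against 6.05% of the 27025 genes with a window. Neither the nuclear receptor hexamer AGGTCA (13.8% of all windows) nor the antioxidant response element TGACNNNGC (10.1%) matched in any of the 7. The GC box matched in 5 of 7, against 32.9% of all windows. These are matches of letters in a short window, and binding was not measured.

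B4galt1, the targeted gene, was 48.7, 53.0, 49.2 and 51.6 CPM (TMM-normalized counts scaled to a common library size) in WT replicates 1 to 4. In the libraries labelled B4-HKO it was 28.4, 23.9 and 53.7 CPM. In CPM, replicates 1 and 2 lay below every control and replicate 3 lay above all 4, so the groups overlapped (log2 fold change -0.52, edgeR adjusted p = 0.181, two-sided exact permutation p = 0.143). In the deposited FPKM, replicate 3 (11.9) lay just below all 4 controls (12.2 to 14.0). Replicates 1 and 2 were at 6.47 and 6.52 FPKM, so the groups did not overlap on that scale. Without replicate 3 the log2 fold change was -0.96 (edgeR adjusted p = 0.0139), and B4galt1 was called. With all 7 mice it was also called in 2 of the 3 limma fits on FPKM. On both scales replicate 3 was near the controls and far above the other B4-HKO libraries. Its label is therefore not borne out by this gene. Calls among the members and list genes that were gained or lost without this library are named below. Total counts ranged from 37838654 to 39668509 in WT and from 30608271 to 34586588 in the B4-HKO libraries. Mitochondrially encoded genes took 3.88 to 8.0% of counts in WT and 14.4 to 22.6% in B4-HKO. Their part in the results below was not tested. Leaving these genes out changed no call among the 9 members. It moved log2 fold changes by a median of only 0.0024, so it cannot decide what this difference means. None of 10 hepatocyte markers was called in edgeR (2 at an unadjusted p under 0.05, and 1 to 2 called by DESeq2, voom and limma on FPKM). Without B4-HKO replicate 3, Cps1 was called lower. The summed level of the 10 markers was 103102 to 146946 CPM in WT and 110816 to 179037 CPM in B4-HKO, ranges that overlapped. Of 5 cholangiocyte and 6 stellate cell markers 0 were called by any of these tools or had an unadjusted p under 0.05, and of 5 endothelial markers edgeR and DESeq2 called 1 lower, Kdr (exact permutation p = 0.171), which voom, limma on FPKM and edgeR without B4-HKO replicate 3 did not. Where 7.83% of all genes tested were called lower and 8% higher, counts of 0 or 1 in lists of this size are near the background. WT replicate 3 stood apart in the endothelial list, with a summed level of 259 CPM against 64.8 to 97.6 CPM in the other controls. In bulk tissue, fewer cells of a type and less RNA per cell cannot be told apart.

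Calls required both an edgeR adjusted p below 0.05 and a log2 fold change beyond 0.58 in size. By this rule Fech fell and Uros rose in the B4-HKO libraries, and the other 7 members were not called. Among all genes tested, 7.83% were called lower and 8% higher, so 1 of 9 in each direction was near the background. Of the 9 log2 fold changes, 7 were negative, as were 48.7% of those of all genes tested. The median of all 9 was -0.45 against 0.02 for all genes tested. In CPM, every B4-HKO mouse lay below every WT mouse for 4 members (Fech, Urod, Cpox and Hmox1) and above for Uros. Of all genes tested, 15.0% and 13.6% were separated in these directions. Without B4-HKO replicate 3, Alas1 joined Fech among the lower calls and Uros was no longer called.

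**Figure D1:**
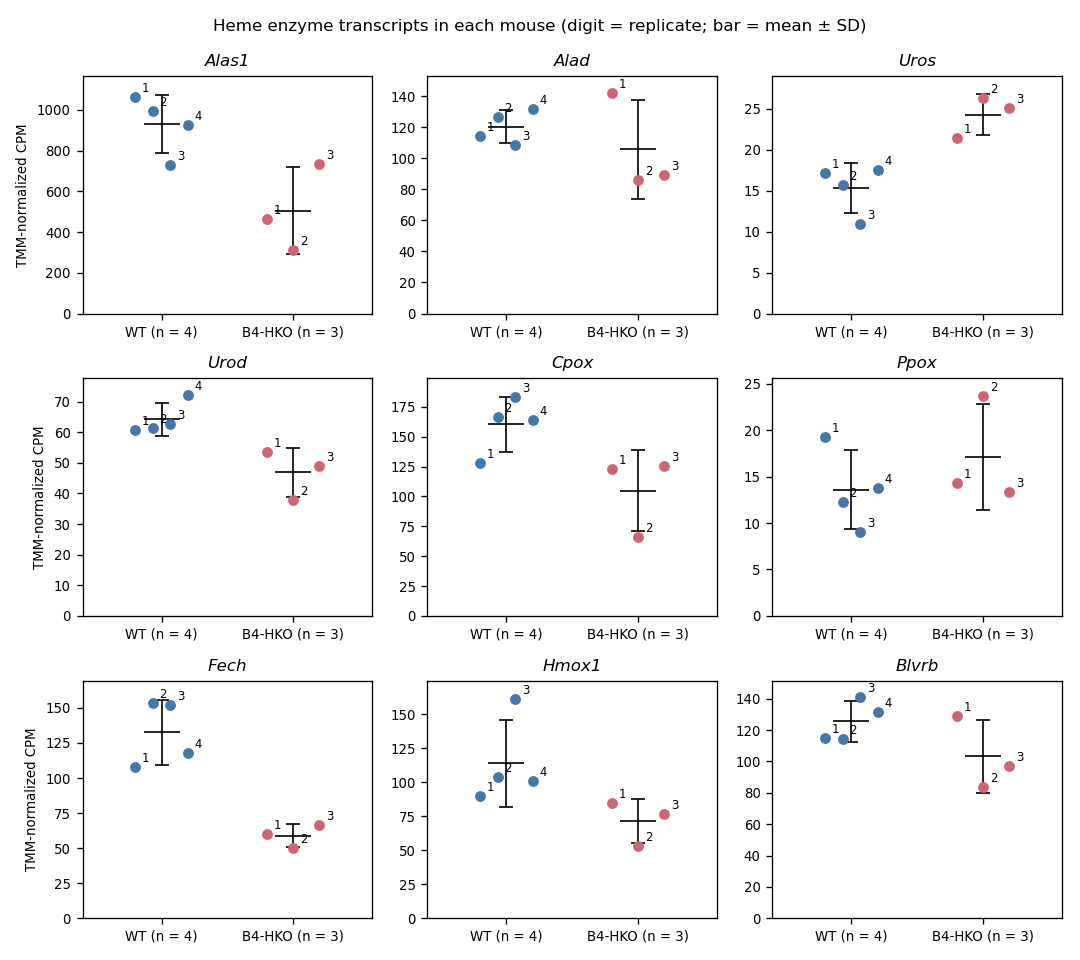
TMM-normalized CPM of the 9 members in each mouse (points, with the replicate digit; y axes start at 0), WT in blue and B4-HKO in red, with mean and SD as black bars. Fech shows the widest gap between groups, Alas1 in B4-HKO replicate 3 lies at the level of the lowest WT mouse, and the Uros points of B4-HKO all lie above those of WT.

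Alas1 was the most abundant member. It was at 1062, 995, 731 and 928 CPM in WT and at 466, 313 and 735 CPM in B4-HKO. B4-HKO replicates 1 and 2 were well below all controls, whereas replicate 3 sat just above the lowest control, WT replicate 3. In FPKM, B4-HKO replicate 3 (198) lay below WT replicate 3 (242), the lowest control, so the groups overlapped in CPM only. The log2 fold change was -0.88 (SE 0.29, 95% interval -1.51 to -0.25, edgeR adjusted p = 0.0585, exact permutation p = 0.0857), which did not pass the test. Leaving out B4-HKO replicate 3, the library whose B4galt1 level was near the controls, gave -1.26 with an edgeR adjusted p of 0.0158. Leaving out replicate 2, the lowest library, gave -0.63 with an edgeR adjusted p of 0.138. Of the exons annotated for Alas1, 7.53% are shared with an antisense gene, and whether counting used strand is not given in the sources used here.

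Alas2, the erythroid isoform, is not one of the 9 genes but catalyses the same step. It was at 29.8, 42.2, 35.7 and 37.7 CPM in WT and at 21.8, 10.4 and 14.0 CPM in B4-HKO. It fell (log2 fold change -1.24, SE 0.25, edgeR adjusted p = 0.0105) with no overlap between the groups. Per kilobase, Alas1 exceeded Alas2 in FPKM by 12.5 to 21.7 times in WT and by 12.99 to 32.0 times in B4-HKO. Alas2 is also one of 10 erythroid markers, of which 6 could be tested. Where 7.83% of all genes tested were called lower and 8% higher, edgeR called Alas2 lower and the globin Hba-a1 higher (log2 fold change 1.11, adjusted p = 0.0452), a call lost without B4-HKO replicate 3. DESeq2 and voom called Hba-a2 higher as well, and limma on FPKM called 0 higher. Ahsp had 0 counts in all 7 libraries, and Slc4a1, Epb42 and Rhag had at most 5 counts in any library. The 10 markers summed to 104 to 183 CPM in WT and 72.1 to 246 CPM in B4-HKO.

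ALAD condenses aminolevulinic acid into porphobilinogen. Alad was at 115, 126, 109 and 132 CPM in WT and at 142, 85.7 and 89.2 CPM in B4-HKO. The B4-HKO values lay on both sides of the controls, and the log2 fold change of -0.19 had a 95% interval of -0.66 to 0.29 (adjusted p = 0.581).

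UROS forms the ring uroporphyrinogen III. Uros was at 17.1, 15.7, 10.9 and 17.5 CPM in WT and at 21.5, 26.4 and 25.1 CPM in B4-HKO. All 3 B4-HKO mice exceeded all controls, and Uros rose by 58.9% (log2 fold change 0.67, SE 0.21, 95% interval 0.22 to 1.12, edgeR adjusted p = 0.0469, exact permutation p = 0.0286, the smallest that 4 against 3 allows). The adjusted p lay just under the threshold, and the call was lost in 6 of the 7 fits that left out 1 mouse, with log2 fold changes from 0.53 to 0.74. The length implied by the FPKM of Uros was 9776 bases, 4.47 times its longest annotated transcript, and the gene model behind it is not given in the sources used here.

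UROD and CPOX trim the side chains of the ring, UROD in the cytosol and CPOX in the mitochondrial intermembrane space. Urod was at 60.7, 61.3, 62.8 and 72.2 CPM in WT and at 53.6, 37.9 and 49.1 CPM in B4-HKO. The groups did not overlap, but the log2 fold change of -0.45 (SE 0.18, adjusted p = 0.110) did not pass the test. Cpox was at 128, 166, 183 and 164 CPM in WT and at 123, 66.0 and 125 CPM in B4-HKO. Here B4-HKO replicates 1 and 3 lay only just below WT replicate 1, and the log2 fold change was -0.61 (SE 0.25, adjusted p = 0.110). Without B4-HKO replicate 3 neither was called (-0.50 for Urod and -0.77 for Cpox, adjusted p = 0.140 and 0.0921). Both intervals lay below 0, from -0.86 to -0.05 for Urod and from -1.15 to -0.07 for Cpox, before adjustment over all genes.

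PPOX oxidises the ring to protoporphyrin. Ppox was at 19.2, 12.2, 9.07 and 13.7 CPM in WT and at 14.4, 23.6 and 13.3 CPM in B4-HKO. The highest value was in B4-HKO replicate 2, and the other 2 B4-HKO mice were within the range of the controls (log2 fold change 0.33, 95% interval -0.28 to 0.95, adjusted p = 0.436). Without B4-HKO replicate 2 the log2 fold change was 0.03. B4galt3, a galactosyltransferase gene of the B4galt1 family on the other strand, shares 17.5% of the annotated exon bases of Ppox, with a log2 fold change of 0.49 that was not called (adjusted p = 0.199). Reads from the shared bases cannot be told apart if counting ignored strand.

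FECH, the last enzyme of synthesis, inserts ferrous iron into protoporphyrin and carries an iron-sulfur cluster. Fech was at 108, 153, 152 and 118 CPM in WT and at 59.9, 50.1 and 66.6 CPM in B4-HKO. The highest B4-HKO mouse was far below the lowest control, and Fech fell by 55.6% (log2 fold change -1.17, SE 0.21, 95% interval -1.63 to -0.72, edgeR adjusted p = 0.00662, exact permutation p = 0.0286). The B4-HKO mouse with a B4galt1 level near the controls, replicate 3, had a Fech level close to the other 2 of its group. Fech was called in all 18 alternative fits, with log2 fold changes from -1.29 to -1.07. Alas1, at the head of the pathway, and Fech, at its end, had a ratio of FPKM of 4.57 to 9.33 in WT and 5.93 to 10.5 in B4-HKO, ranges that overlapped.

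**Figure D2:**
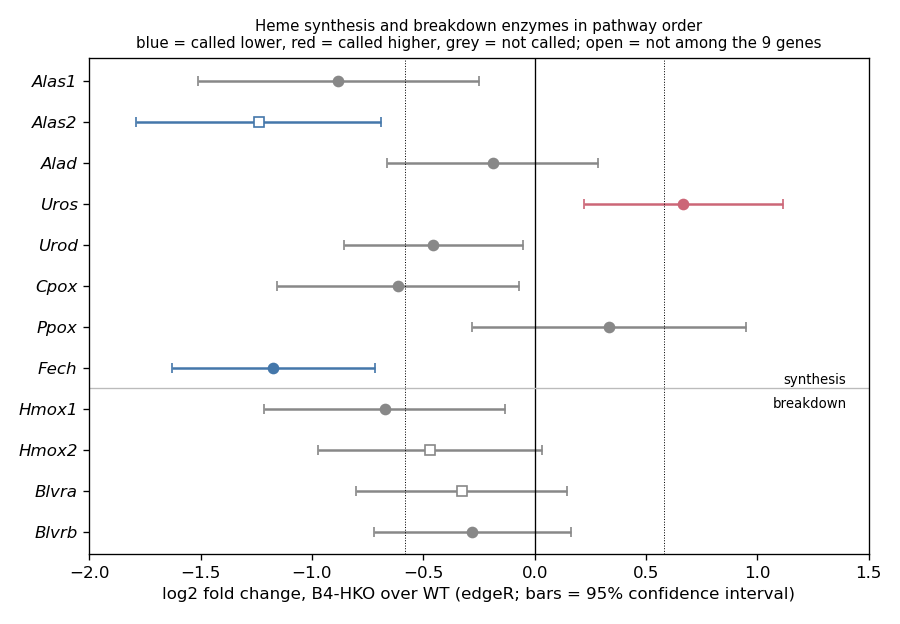
log2 fold changes (x axis, B4-HKO over WT) with 95% confidence intervals for the enzymes in pathway order, synthesis above and breakdown below the grey line; filled circles are the 9 members and open squares other enzymes of the same steps, and dotted lines mark 0.58 in both directions. The called enzymes are Alas2 and Fech, both lower, and Uros, higher, and the intervals of Alad, Ppox, Hmox2, Blvra and Blvrb span 0.

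Of breakdown, Hmox1 encodes the inducible heme oxygenase, which is high in macrophages that clear red cells and is induced by heme and oxidative stress. Hmox1 was at 90.2, 104, 161 and 101 CPM in WT and at 84.5, 53.4 and 76.7 CPM in B4-HKO. All 3 B4-HKO mice were below all controls, by a small margin between B4-HKO replicate 1 and WT replicate 1, and WT replicate 3 was the highest. The log2 fold change was -0.67 (SE 0.25, 95% interval -1.21 to -0.13, adjusted p = 0.0842, exact permutation p = 0.0571), short of the threshold, and without B4-HKO replicate 3 it was -0.73 (adjusted p = 0.117). Of 20 Kupffer cell and macrophage markers, edgeR called 9 lower and 0 higher, against 7.83% and 8% of all genes tested, led by Lyz2 (log2 fold change -2.15), Adgre1 (-1.88), Gpnmb (-1.72) and Vsig4 (-1.24). Their summed level was 2121 to 4336 CPM in WT, with WT replicate 3 the highest as for Hmox1, and 1085 to 1302 CPM in B4-HKO. DESeq2 and limma on FPKM called 11 lower and 0 higher, and voom 9 lower and 1, Ptprc, higher. Over all genes, DESeq2 called 1562 of 16263 lower and voom 1446 of 15179. Limma on FPKM called 1733 (+ 1) and 1946 (+ 0.1) of 10914 lower. Without B4-HKO replicate 3, 6 of the 9 markers called by edgeR remained called, with Vsig4, Marco and Trem2 lost. The part of macrophages in the Hmox1 values was not tested.

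Hmox2, the constitutive heme oxygenase, was at 41.2 to 56.4 CPM in WT and at 26.5 to 48.2 CPM in B4-HKO, with overlapping groups (log2 fold change -0.47, adjusted p = 0.179). It was called lower by limma on FPKM and by edgeR without B4-HKO replicate 3. Blvrb, whose product reduces flavins as well as biliverdin, was at 115, 114, 141 and 132 CPM in WT and at 129, 83.8 and 97.2 CPM in B4-HKO. B4-HKO replicate 1 was among the controls and the other 2 were below them (log2 fold change -0.28, 95% interval -0.72 to 0.16, adjusted p = 0.360). Blvra, the main reductase of adult bilirubin formation, was at 15.8 to 23.6 CPM in WT and at 13.5 to 19.9 CPM in B4-HKO, again with overlap (log2 fold change -0.33, adjusted p = 0.315). The FPKM ratio of Hmox1 to Blvrb was 0.485 to 0.722 in WT and 0.403 to 0.500 in B4-HKO.

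Levels of different genes were set side by side in FPKM, which divides by gene length. In WT the order of mean levels ran from Alas1 (297 ± 56.9 FPKM, SD, n = 4) and Blvrb (131 ± 16.2) through Hmox1 (75.5 ± 23.3), Cpox (52.1 ± 7.16), Fech (44.6 ± 8.14), Urod (44.0 ± 2.26) and Alad (26.3 ± 1.22) to Ppox (6.62 ± 2.48) and Uros (1.62 ± 0.328). Hmox1 and Cpox, Cpox and Fech, and Fech and Urod overlapped in their ranges, and the other neighbours did not. Lengths implied by the deposited FPKM differed from the longest annotated transcript by a factor of 4.47 for Uros and 2.67 for Alad. The factor was 0.664 for Blvrb, 0.487 for Ppox and 0.471 for Fech. The place of these genes in the order, and their overlap with neighbours, therefore depends on the authors' gene models. In CPM, which takes no length, Uros (15.3 on average in WT) and Ppox (13.6) were the lowest as well. In B4-HKO the order was Alas1 (144 ± 48.8 FPKM, SD, n = 3), Blvrb (97.8 ± 16.7), Hmox1 (42.7 ± 5.91), Cpox (30.7 ± 7.13), Urod (29.2 ± 2.51), Alad (21.1 ± 5.46), Fech (18.0 ± 0.817), Ppox (7.80 ± 3.57) and Uros (2.39 ± 0.482). On these lengths Fech moved from the fifth place to the seventh. Neighbours overlapped for Alas1 and Blvrb, Cpox and Urod, Urod and Alad, and Alad and Fech. FPKM divides by the plain library total, and on that scale the median log2 fold change of all genes was shifted by about -0.12 from that under TMM.

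**Figure D3:**
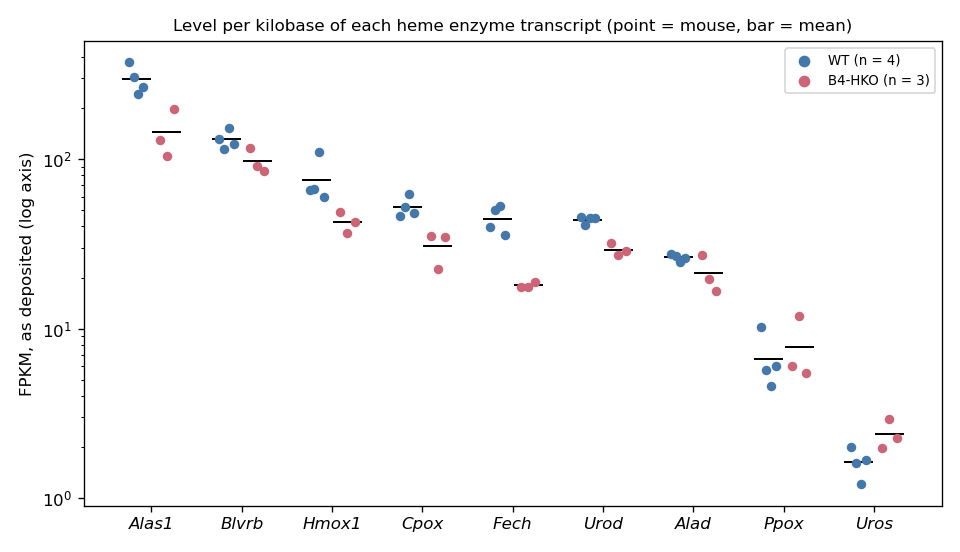
FPKM as deposited (log axis) of the 9 members, ordered by WT mean, with 1 point per mouse and bars for group means. Alas1 tops both groups and Uros ends both, and the 3 Fech points of B4-HKO (17.5 to 18.9 FPKM) lie tightly together under the 4 of WT (35.7 to 53.0 FPKM).

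The mice of a group did not stand in one order across the members. B4-HKO replicate 2 was the lowest of its group for 7 of the 9 genes (all but Uros and Ppox, for which it was the highest). WT replicate 3 was the lowest control for Alas1, Alad, Uros and Ppox and the highest for Cpox, Hmox1 and Blvrb. Within WT the coefficient of variation ran from 8.37% for Urod to 31.3% for Ppox, and within B4-HKO from 10.5% for Uros to 42.4% for Alas1. Fech varied by 17.5% in WT and 14.2% in B4-HKO, where the median over all genes tested was 21.4% and 24.9%.

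Among 20 tested genes of heme and porphyrin transport, iron-sulfur supply and Alas1 import and turnover, 4 fell and 2 rose, where 7.83% of all genes tested fell and 8% rose, so the number that rose was near the background. Limma on FPKM called 8 (+ 1) and 9 (+ 0.1) lower and 2 higher. In those fits 1733 and 1946 of all 10914 genes were called lower, and 561 and 601 higher. The median log2 fold change was -0.32 against 0.02 for all genes tested. Clpx, the unfoldase of the mitochondrial CLPXP protease that acts on ALAS enzymes, was at 59.0 to 86.9 CPM in WT and rose to 115 to 191 CPM in B4-HKO (log2 fold change 1.01, adjusted p = 0.0150). Slc25a38, the mitochondrial carrier that brings in glycine for the first step, was at 14.0 to 19.8 CPM in WT and rose to 25.9 to 36.0 CPM in B4-HKO (0.93, adjusted p = 0.0128). The 4 that fell were Slc46a1 (log2 fold change -0.97), Flvcr2 (-0.96) and Slc48a1 (-0.73), membrane transporters of which Slc46a1 is best known for folate and Slc48a1 for heme, and the protease gene Lonp1 (-0.72). None of these 6 overlapped between the groups, as was so for 15.0% (lower) and 13.6% (higher) of all genes tested, and all 6 were called without B4-HKO replicate 3 too (Clpx then at 0.74), joined by Tspo. Slc48a1 and Lonp1 fall outside the rule for named genes and were named after their values were seen.

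Of 12 other genes of heme breakdown and bilirubin handling, 5 fell and 0 rose, against 7.83% and 8% of all genes tested, and the list median was -0.58. All 5 were also called without B4-HKO replicate 3, and Hmox2 with them. Ugt1a1, which conjugates bilirubin, was at 151, 222, 243 and 98.4 CPM in WT and at 9.64, 10.7 and 35.6 CPM in B4-HKO, and fell by 89.6% (log2 fold change -3.26, SE 0.50, adjusted p = 0.00389). Without B4-HKO replicate 3 the log2 fold change was -4.14. Genes of the Ugt1a family share their last exons, so the split of reads among them is uncertain. The organic anion carriers Slco1b2, which takes bilirubin up (log2 fold change -1.28, adjusted p = 0.0133), and Abcc2, which exports the conjugate into bile (-0.96, adjusted p = 0.0226), fell without overlap. Slco1a1 was low, 0.778 to 8.59 CPM in WT and 0.0302 to 1.18 CPM in B4-HKO, and fell with overlapping ranges (-3.54, adjusted p = 0.0302). Voom did not call it, and without B4-HKO replicate 3 its log2 fold change was -5.78. Abcc3, which exports conjugates towards blood and was also named after its values were seen, fell as well (-0.74, adjusted p = 0.0274).

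Genes that scavenge free heme and hemoglobin gave no call. None of the 6 passed the test in edgeR, 1 (Lrp1) had an unadjusted p under 0.05, DESeq2, voom and limma on FPKM called 0 as well, and the list median was 0.11. With 7.83% of all genes tested called lower and 8% higher, a count of 0 in 6 genes is near the background. Hpx, which binds free heme in plasma, was at 6142 to 8718 CPM in WT and at 6271 to 7829 CPM in B4-HKO (log2 fold change -0.06, 95% interval -0.60 to 0.48, adjusted p = 0.888).

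Regulators known to act on Alas1 went both ways, with 2 of 14 lower, 2 higher (7.83% and 8% of all genes tested) and a median of 0.27. Nr1d1 (REV-ERB alpha), a repressor of the clock, was at 97.8, 57.6, 28.0 and 67.1 CPM in WT and at 21.4, 30.5 and 11.0 CPM in B4-HKO, with overlap at WT replicate 3 (log2 fold change -1.58, adjusted p = 0.0261), and the call was lost without B4-HKO replicate 3 (adjusted p = 0.0662). Bmal1, which that repressor acts on, was at 1.30 to 2.78 CPM in WT and at 3.47, 6.79 and 18.7 CPM in B4-HKO (2.38, adjusted p = 0.0112), and without replicate 3, its highest library, the log2 fold change was 1.45 (adjusted p = 0.0419). Its partner Npas2 was under 1 CPM in all 7 mice (-0.73, adjusted p = 0.589). Rxra, the shared partner of nuclear receptors, was at 294 to 383 CPM in WT and fell to 128 to 162 CPM in B4-HKO (-1.15, adjusted p = 0.00605). Nr1i2 (PXR), a receptor for drugs and other foreign compounds, was at 90.6 to 97.5 CPM in WT and rose to 150 to 191 CPM in B4-HKO (0.81, adjusted p = 0.0132). The coactivator Ppargc1a, which drives Alas1 in fasting, was at 19.8 to 35.1 CPM in WT and at 28.5 to 49.3 CPM in B4-HKO (0.41, adjusted p = 0.301).

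BACH1 represses Hmox1 until heme binds it, and NRF2 (Nfe2l2) activates Hmox1 and antioxidant genes. Bach1 was at 44.4 to 66.5 CPM in WT and at 38.6 to 53.0 CPM in B4-HKO (log2 fold change -0.32, adjusted p = 0.299). Nfe2l2 was at 83.1 to 114 CPM and at 72.7 to 97.0 CPM (-0.29, adjusted p = 0.318). Both overlapped between the groups. Of the 13 genes of this list, 1 fell, the thioredoxin reductase Txnrd1 (-0.73, adjusted p = 0.0449), and 0 rose, with a median of -0.29. A count of 1 in 13 is about the share called lower among all genes (7.83%), and without B4-HKO replicate 3 Txnrd1 was not called (adjusted p = 0.0531).

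The list of hepatocyte hemoproteins also held the flavoprotein partners Por and Cyb5r3 and the enzymes Cox10, Cox15 and Hccs, which convert or attach heme. Of its 26 tested genes, 7 fell and 0 rose, where 7.83% of all genes tested fell and 8% rose, and the median was -0.48. Of the 7, 6 encode hemoproteins, and the other, Cox15, makes heme A. Cyp8b1, the sterol hydroxylase of cholic acid synthesis, fell the most (136 to 405 CPM in WT, 53.5 to 126 CPM in B4-HKO, log2 fold change -1.73, adjusted p = 0.0145). Suox (sulfite oxidase) was at 71.8 to 83.8 CPM in WT and fell to 17.3 to 46.3 CPM in B4-HKO (-1.41, adjusted p = 0.0106), and Cyp7b1 of the alternative bile acid route fell too (-1.39, adjusted p = 0.0288). Cyp2e1, an abundant P450 of liver, was at 8848, 9314, 9868 and 9198 CPM in WT and at 3584, 2417 and 5215 CPM in B4-HKO (-1.32, adjusted p = 0.0145). DESeq2 called 10 of the list lower, voom 11 and limma on FPKM 13, all with 0 higher. Over all genes, DESeq2 called 1562 of 16263 lower and voom 1446 of 15179. Limma on FPKM called 1733 (+ 1) and 1946 (+ 0.1) of 10914 lower, a larger share than edgeR. EdgeR without B4-HKO replicate 3 called 11 of the list, adding Tdo2, Cyp1a2, Cyp2f2 and Cyp7a1. As for Alas1, the lowest Cyp2e1 value was in B4-HKO replicate 2 and the highest B4-HKO value was in replicate 3. The Cyp2e1 groups were, however, far apart.

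**Figure D4:**
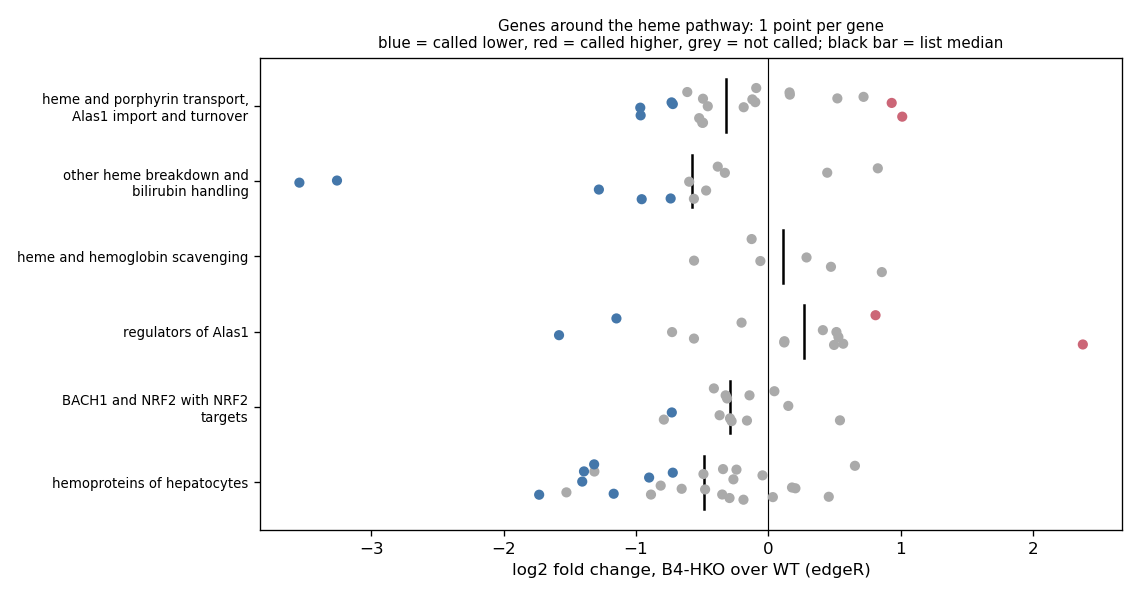
log2 fold changes (x axis, B4-HKO over WT) of the tested genes of 6 lists around the heme pathway, 1 point per gene with called genes in colour and the list median as a black bar; height within a list has no meaning. Called genes are all lower in bilirubin handling (5 of 12) and the hemoprotein list (7 of 26), absent in scavenging (0 of 6), and in both directions among transport genes and regulators of Alas1.

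The genes whose log2 CPM followed Alas1 most closely over the 7 mice, among 7589 tested genes at or above the median level, were Anks4b (Pearson r = 0.996), Urad (0.994), Pex14 (0.993), Yif1b (0.991) and Derl1 (0.988). For Hmox1 they were Tspyl1 (0.996), Acot1 (0.994), Grb2 (0.994), Cd47 (0.990) and Atp6v1c1 (0.987). All 10 had negative log2 fold changes, from -0.99 to -0.48, as do Alas1 and Hmox1. The 7 points share libraries, depth and the split into groups, so these values describe the mice and test nothing.

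**Figure D5:**
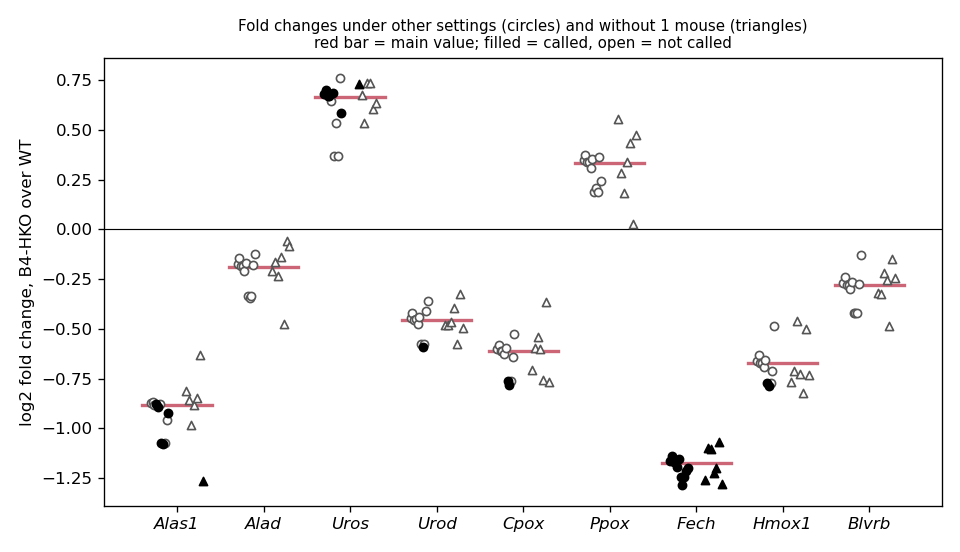
log2 fold changes (y axis, B4-HKO over WT) of the 9 members in the main fit (red bars), under other settings (circles) and without 1 mouse (triangles); filled symbols were called. Fech is filled throughout, Uros and Alas1 in part of the fits, Alad, Ppox and Blvrb in none, and every symbol keeps the sign of its red bar.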

How the data were processed

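RNA from the liver of 7 mice was sequenced, 1 library per mouse (4 WT, 3 B4-HKO), with groups and replicate numbers taken from the sample labels. Per the labels, total RNA was extracted with TRIzol and libraries were made with a VAHTS Universal kit. The authors deposited unnormalized gene counts and, for the same genes and mice, FPKM values, which equalled counts divided by a fixed length per gene and by the library total (checked on 13374 genes with 10 or more counts in all 7 mice). The submitters' processing notes name fastp, HISAT2, HTSeq, DESeq2, R 3.2.0 and GRCm39. The annotation and the use of strand in counting are not given in the sources used here. All columns of values were used.

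Genes were kept by filterByExpr (minimum count 10, minimum total 15) and tested with edgeR 4.0.16 (limma 3.58.1, R 4.3.3) by the quasi-likelihood F-test after TMM normalization, with group as the only term and Benjamini-Hochberg adjustment over 15179 genes. Calls needed an adjusted p under 0.05 and a log2 fold change beyond 0.58 in size, the threshold of the study, which used DESeq2. The F statistic gave the standard errors. For single values a two-sided exact permutation test over the 35 splits was used, whose smallest p is 0.0286. The script was tested on simulated data. Lists were described by counts and medians, with no set test. A count of 3 corresponds to 0.0690 to 0.0987 CPM per library. The p-values set the group difference against the variation among these 7 mice, estimated with information shared across genes. Exon overlaps came from GENCODE M21 (GRCm38), promoter windows from RefSeq (GRCm38.p6).

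Named genes were all members, B4galt1, up to 4 called genes of each list by size of change, the direct partners of members, and the 5 genes most correlated with Alas1 and with Hmox1. Some genes are not reported here. Members and lists were chosen with earlier results of these data known. Alternatives were RLE and upper-quartile normalization, TMM without mitochondrial genes, DESeq2 1.42.0, other count filters, no fold threshold, limma on log2(FPKM + 1) and log2(FPKM + 0.1), voom with quality weights, a block for the replicate number, and each mouse left out. No 2 libraries were copies of each other (21 pairs compared).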

Additional observations from a re-analysis of the deposited data

How the results depend on the processing

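Fech was called lower in all 18 alternatives, and no member changed sign in any. The count of members called lower, 1 in the main fit, was 2 with DESeq2, with a filter of 1 count in any mouse and with voom (Alas1 and Fech each time), 4 with limma on log2(FPKM + 1) (Alas1, Cpox, Fech and Hmox1) and 5 with log2(FPKM + 0.1) (these and Urod), and 1 to 2 without 1 mouse. The count called higher, 1 (Uros), was 0 with the filter of 1 count in any mouse, with the 3 limma fits on FPKM and with the replicate block, and 0 to 1 without 1 mouse. Adjusted p ranged from 0.00940 to 0.138 for Alas1, called in 6 of 18, and from 0.0298 to 0.261 for Uros, called in 7 of 18.

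Of the genes of the pathway lists (Alas2 and lists of 20, 12, 6, 14, 13 and 26 tested genes), 20 were called lower and 4 higher. Over all genes tested the shares were 7.83% lower and 8% higher. With limma on FPKM 32 (+ 1) and 33 (+ 0.1) were lower, with all genes above 0 kept 0 were higher, and without 1 mouse 12 to 24 were lower and 2 to 5 higher. The median of all genes shifted by -0.119 to -0.127 on the FPKM scale. Over all genes, 1189 were lower and 1215 higher. Of 10914 genes, limma gave 1733 and 561 with log2(FPKM + 1), and 1946 and 601 with log2(FPKM + 0.1). It gave 1088 and 242 of 22960 with all genes kept. Leaving out 1 mouse gave 474 to 1175 and 411 to 1291 with edgeR.

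The replicate block gave 615 lower and 652 higher calls over all genes, and 1 lower and 0 higher among the members. Same-numbered mice are different animals and their deviations correlated at -0.34, -0.03 and 0.08, so the numbers were not taken to pair them. With 4 and 3 mice, the 95% intervals stayed wide (-0.66 to 0.29 for Alad, -0.28 to 0.95 for Ppox), and differences within them may have gone unseen. The cause of these dependences was not tested.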
